A study of Mus musculus with 2 samples.

Results

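Vessels admit leukocytes through a small set of endothelial surface and stored proteins, and the genes of 8 of them were followed here across the cells of the mouse temporomandibular joint (TMJ), the jaw joint. These were Selp, Sele, Vcam1, Icam1, Icam2, Ackr1, Vwf and Jam2, taken by gene symbol, and all 8 were present among the 32285 genes of both count matrices. To investigate painful TMJ osteoarthritis, wild-type C57BL/6 female mice of 8 to 10 weeks by the labels (C57BL/6J in the study's methods) were injected in the joint with PBS or with complete Freund's adjuvant (CFA), an oil emulsion with killed mycobacteria that causes lasting inflammation, and joints were collected 3 weeks later. All groups shared this genotype and strain, and no transgene or Cre was used for these libraries. Each condition is 1 single-cell RNA sequencing library, with joints from a stated n of 3 and a cell suspension from which CD45+ leukocytes had been reduced, so differences between the libraries have no replicate check and the shares of blood cells were set in part by that reduction. Of 7671 PBS and 5709 CFA barcodes, 2667 and 4014 passed the limits of at least 500 genes, at most 10% mitochondrial and at most 1% hemoglobin UMIs (unique molecular identifiers, each counting 1 captured RNA molecule). The median cell held 7022 UMIs in PBS and 6509.5 in CFA, 10 barcodes occurred in both libraries and 2 of these were among the cells kept.

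Leukocytes leave the blood in steps. Selectins on the endothelium (P-selectin from Selp, E-selectin from Sele) slow the cell to a roll, chemokines held at the vessel surface activate its integrins, and the integrins then bind immunoglobulin-type ligands (VCAM-1, ICAM-1, ICAM-2) before the cell crosses the junctions. Ackr1 encodes the atypical chemokine receptor that carries chemokines across the wall of small veins without signalling through G proteins. Vwf encodes von Willebrand factor, the platelet-binding protein that is stored with P-selectin in the Weibel-Palade bodies of endothelium, and Jam2 encodes a junctional adhesion molecule that lies where endothelial cells meet. In most tissues, postcapillary venules are the main site of this traffic, and inflammatory cytokines act on the promoters of several of these genes through NF-kB.

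The 8 genes lie on 6 chromosomes of the GRCm38 (mm10) build. Sele (ENSMUSG00000026582) and Selp (ENSMUSG00000026580) are neighbours on the plus strand of chromosome 1, at chr1:164048234-164057677 and chr1:164115264-164150026, with starts 67030 bases apart. Ackr1 (ENSMUSG00000037872, minus strand, chr1:173331886-173333750) lies within the annotated span of Cadm3 on the same strand, so reads of the shared stretch could be split between these genes or lost, and the Ackr1 counts are uncertain to that extent. Vcam1 is at chr3:116109949-116129688 (minus strand), Icam1 at chr9:21015985-21028817 (plus), Icam2 at chr11:106377656-106388075 (minus), Vwf at chr6:125546774-125686679 (plus) and Jam2 at chr16:84774123-84825928 (plus). Selp, Vcam1 and Icam1 overlap annotated antisense genes, and whether their counts used strand is not given in the sources used here.

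RefSeq promoter sequences (GRCm38.p6) were at hand for 4 of the 8 genes, and those of Sele, Selp and Icam1 are shown. They were chosen because Sele and Selp had the most alike levels over the cell groups, while in CFA endothelial-like cells Selp was higher and Icam1 lower. Sele did not share the difference of Selp, with a CFA to PBS ratio of 1.045 in endothelial-like cells. Each run is the 250 bases before the RefSeq start of transcription, 5' to 3' on the gene's strand. Capitals mark a match of GGNNNTTCC, a loose form of the NF-kB site, on either strand, or of the TATA-box letters TATAAA on either strand. They lie at chr1:164047984-164048233 (plus strand) for Sele, chr1:164115014-164115263 (plus strand) for Selp and chr9:21015690-21015939 (plus strand) for Icam1.
Sele: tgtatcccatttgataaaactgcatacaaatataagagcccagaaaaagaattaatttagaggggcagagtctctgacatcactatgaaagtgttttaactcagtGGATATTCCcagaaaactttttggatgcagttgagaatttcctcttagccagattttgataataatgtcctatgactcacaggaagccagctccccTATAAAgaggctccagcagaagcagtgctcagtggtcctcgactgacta
Selp: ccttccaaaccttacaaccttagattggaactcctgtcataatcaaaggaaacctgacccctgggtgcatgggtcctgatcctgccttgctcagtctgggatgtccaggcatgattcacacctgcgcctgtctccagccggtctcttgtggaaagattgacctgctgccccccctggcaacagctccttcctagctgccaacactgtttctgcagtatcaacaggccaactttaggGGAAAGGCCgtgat
Icam1: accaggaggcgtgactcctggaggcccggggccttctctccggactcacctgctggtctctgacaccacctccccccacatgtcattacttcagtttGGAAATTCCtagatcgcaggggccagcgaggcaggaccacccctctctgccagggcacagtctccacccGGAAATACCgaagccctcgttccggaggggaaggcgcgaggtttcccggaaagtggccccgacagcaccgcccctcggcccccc
Sele held both motifs, GGATATTCC beginning 145 bases before the start and TATAAA beginning 49 bases before it. Selp held only a GGNNNTTCC match on the minus strand, 14 bases before the start. The promoter of Icam1 held GGAAATTCC, 153 bases before the start, which reads as a match on both strands, and a minus-strand match at 84 bases. Ackr1 held 1 minus-strand match at 131 bases. Of 32851 RefSeq promoters of this length, 15.7% held GGNNNTTCC and 12.4% held TATAAA, so a match is common, and it is a description of the letters and not evidence of a bound factor.

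Cells were clustered without these 8 genes and without the other listed genes of adhesion and inflammation. None of the 8 was used to name a cell class or vessel subtype. Pecam1 and Cdh5, which are among the other listed genes, were still used to name endothelial-like cells. Endothelial-like cells, named from Flt1, Kdr, Pecam1, Cdh5, Tie1, Egfl7, Cldn5 and Eng, were 732 PBS cells with a median of 5444.5 UMIs and 1041 CFA cells with a median of 4449. Levels are given as CPM, the UMIs of a gene as counts-per-million of all UMIs of a cell group in a library. Each of these 8 markers was higher in them than in the other cells in both libraries, with Pecam1 at 1275 against 92.6 CPM in PBS and 1351 against 50.1 in CFA. A further cluster of 59 PBS and 201 CFA cells, with all 8 markers detected, stayed unnamed because its cells held few UMIs. It was counted with the endothelial-like cells only in an alternative. Reclustering gave arterial-like cells (116 PBS and 134 CFA), capillary-like cells (233 and 376) and venular-like cells (136 and 202). The last were named from Plvap, Aplnr, Nr2f2, Lrg1, Tmem252 and Ptgs1, 6 of the 8 listed venular markers. The other listed markers, Ephb4 and Adgrg6, did not pass the naming rule. Ephb4 was at 104 CPM in PBS and 113 in CFA, against 92.3 and 104.5 in the other endothelial-like cells. The study itself placed cells marked by Plvap, Aplnr and Vcam1 among capillary endothelial cells. The remaining endothelial-like cells, among them 179 and 223 led by Bmp6 and Slc10a6, matched too few subtype markers to be named.

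Across the joint, most UMIs of 6 of the 8 genes came from endothelial-like cells in both libraries. For Sele these cells gave 90.6% of all UMIs in PBS and 91.1% in CFA, for Jam2 80.3% and 84.2%, for Icam2 78.7% and 83%, and for Selp 78.3% and 86.5%. Vwf followed with 67.6% and 84.8% and Ackr1 with 52.3% and 82.9%. The exceptions were Vcam1, at 32.7% and 42.8%, and Icam1, at 46.3% and 27.1%, which were spread over stromal, muscle and blood cells as well. Icam2 stood at 258 in PBS and 203 CPM in CFA endothelial-like cells against 1.96 and 6.03 in Schwann-like cells, a class not known for these genes. The corresponding levels of Selp were 118 and 253 against 3.27 and 6.58, and those of Vwf 120 and 149 against 29.45 and 22.5.

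**Figure D1:**
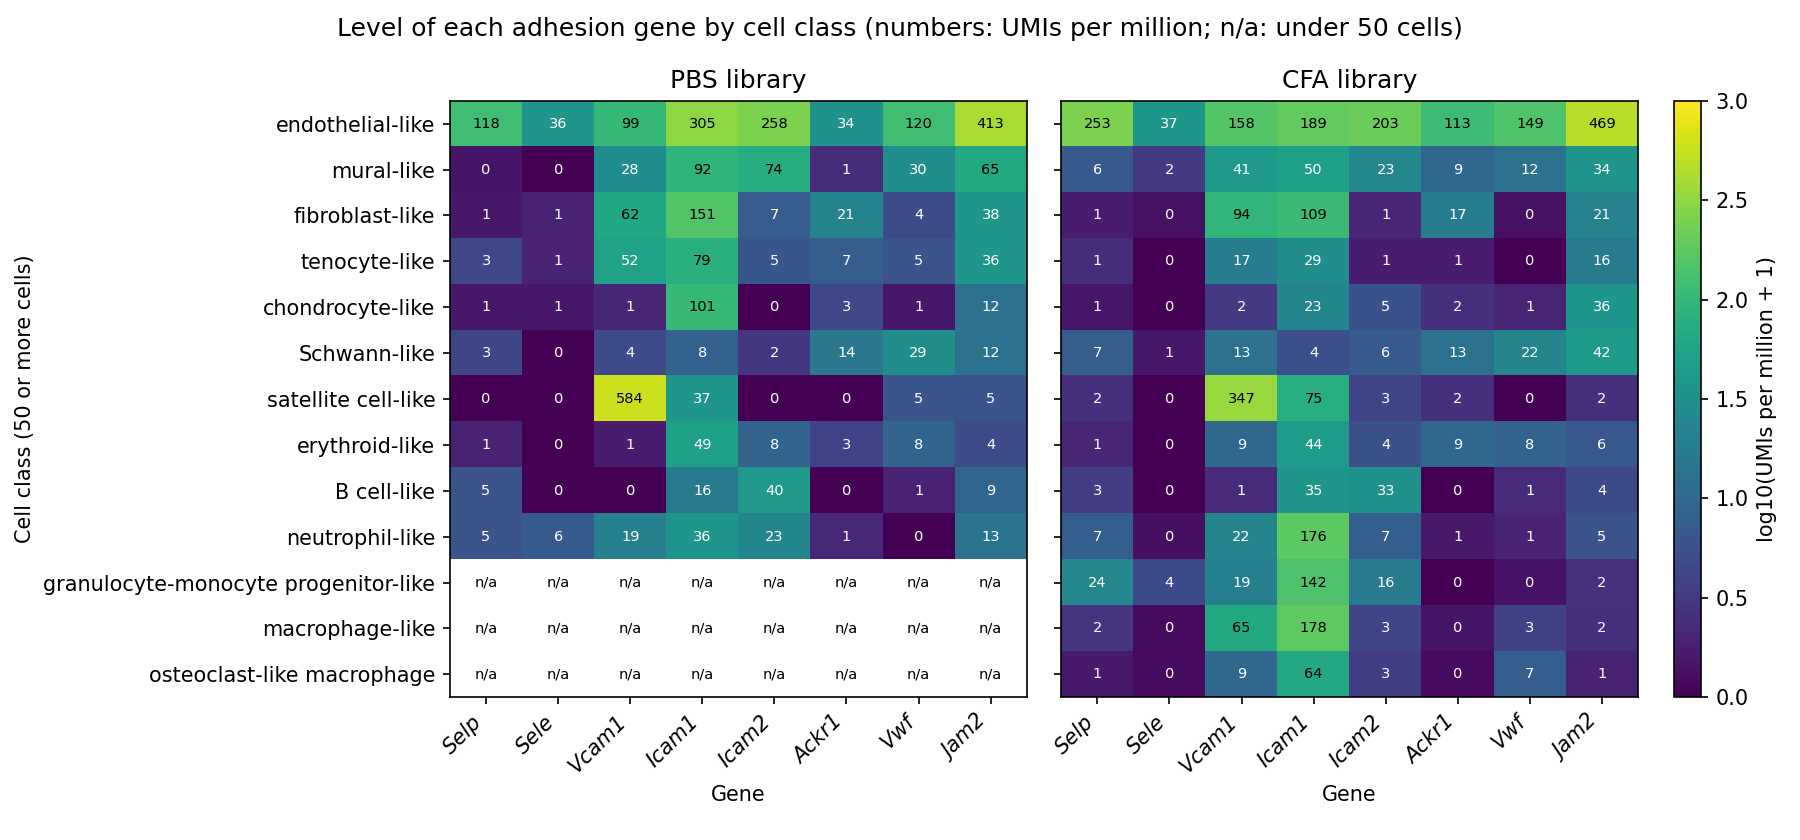
Level of each gene (columns) in each cell class of 50 or more cells (rows) in the PBS and CFA libraries, with the printed number in CPM and the colour as log10(CPM + 1). Endothelial-like cells carry all 8 genes, whereas Vcam1 is highest among these classes in satellite cell-like cells at 584 in PBS and 347 in CFA.

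Within the vessels, the genes of rolling and of chemokine transport were found mostly in venular-like cells. Selp was at 348 CPM in PBS and 584 in CFA venular-like cells, against 0 and 6.35 in arterial-like and 0 and 0.58 in capillary-like cells. The 0 of 948284 arterial-like UMIs in PBS allows a level of up to 3.16, so Selp was at least 109.9-fold higher in PBS venular-like cells, with the limit set at 3 UMIs over the group. Sele read 107 and 85.7 in venular-like cells and was at 0 in capillary-like cells of both libraries, which allows up to 1.90 and 1.74. Ackr1 was at 97.95 and 257 in venular-like cells and at no more than 2.32 in the other 2 named subtypes. Venular-like cells gave 94.05% and 96.7% of the endothelial-like UMIs of Selp, 96.1% and 96.1% of those of Sele, and 92.7% and 94.99% of those of Ackr1, while making up 18.6% and 19.4% of endothelial-like cells. Because they were deeper than most, they held a larger part of the UMIs of all genes than of the cells. That part was 1817287 of 5684549 endothelial-like UMIs in PBS and 2880975 of 6888840 in CFA, so it was larger in CFA.

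Vcam1, the ligand of the integrin that B cells, monocytes and T cells use for firm adhesion, was also highest in venular-like cells, at 268 and 330 CPM against 4.22 and 57.1 in arterial-like and 3.17 and 5.215 in capillary-like cells. Icam1, the ligand of the leukocyte integrins LFA-1 and Mac-1, was spread more evenly, at 489 and 319 in venular-like, 205 and 126 in arterial-like and 109 and 61.4 in capillary-like cells. Icam1 was also at 370 in PBS and 134 in CFA in the unnamed cells led by Bmp6 and Slc10a6, above the arterial-like and capillary-like cells of the PBS library. Vwf had the same order as Icam1, from 230 and 253 in venular-like through 71.7 and 138 in arterial-like to 40.5 and 35.9 in capillary-like cells. The 95% Poisson intervals of neighbouring subtypes in these orders did not overlap within either library, except for Vcam1 in PBS, where arterial-like and capillary-like cells held 4 and 5 UMIs. They cover counting error only, here and in every interval given.

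The remaining genes of the set did not follow this order. Among the named subtypes, Icam2, which resting endothelium carries at all times, was highest in arterial-like cells at 326 and 311 CPM. Its PBS levels in capillary-like (251) and venular-like cells (244) had overlapping intervals. Jam2 was highest among the named subtypes in capillary-like cells, at 530 and 691, and lowest in venular-like cells, at 324 and 309. The Jam2 intervals of capillary-like cells did not overlap those of the other named subtypes. Among the 3 named subtypes, 6 of the 8 genes were thus highest in venular-like cells in both libraries, Icam2 and Jam2 being the exceptions. An unnamed group of 13 PBS and 34 CFA endothelial-like cells, led by Snrpf and Atp5md, also carried Selp (450.5 and 366), Vcam1 (305.2 and 485) and Vwf (479.6 and 128). Icam2 was at 405 and 373 in unnamed endothelial-like cells led by Fth1 and Ctss, with intervals that overlapped those of arterial-like cells. Jam2 was at 480 and 667 in the unnamed cells led by Bmp6 and Slc10a6, with intervals that overlapped those of capillary-like cells. Levels are compared between cell groups for 1 gene at a time and not between genes, because counts at the 3' end depend on the transcript.

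**Figure D2:**
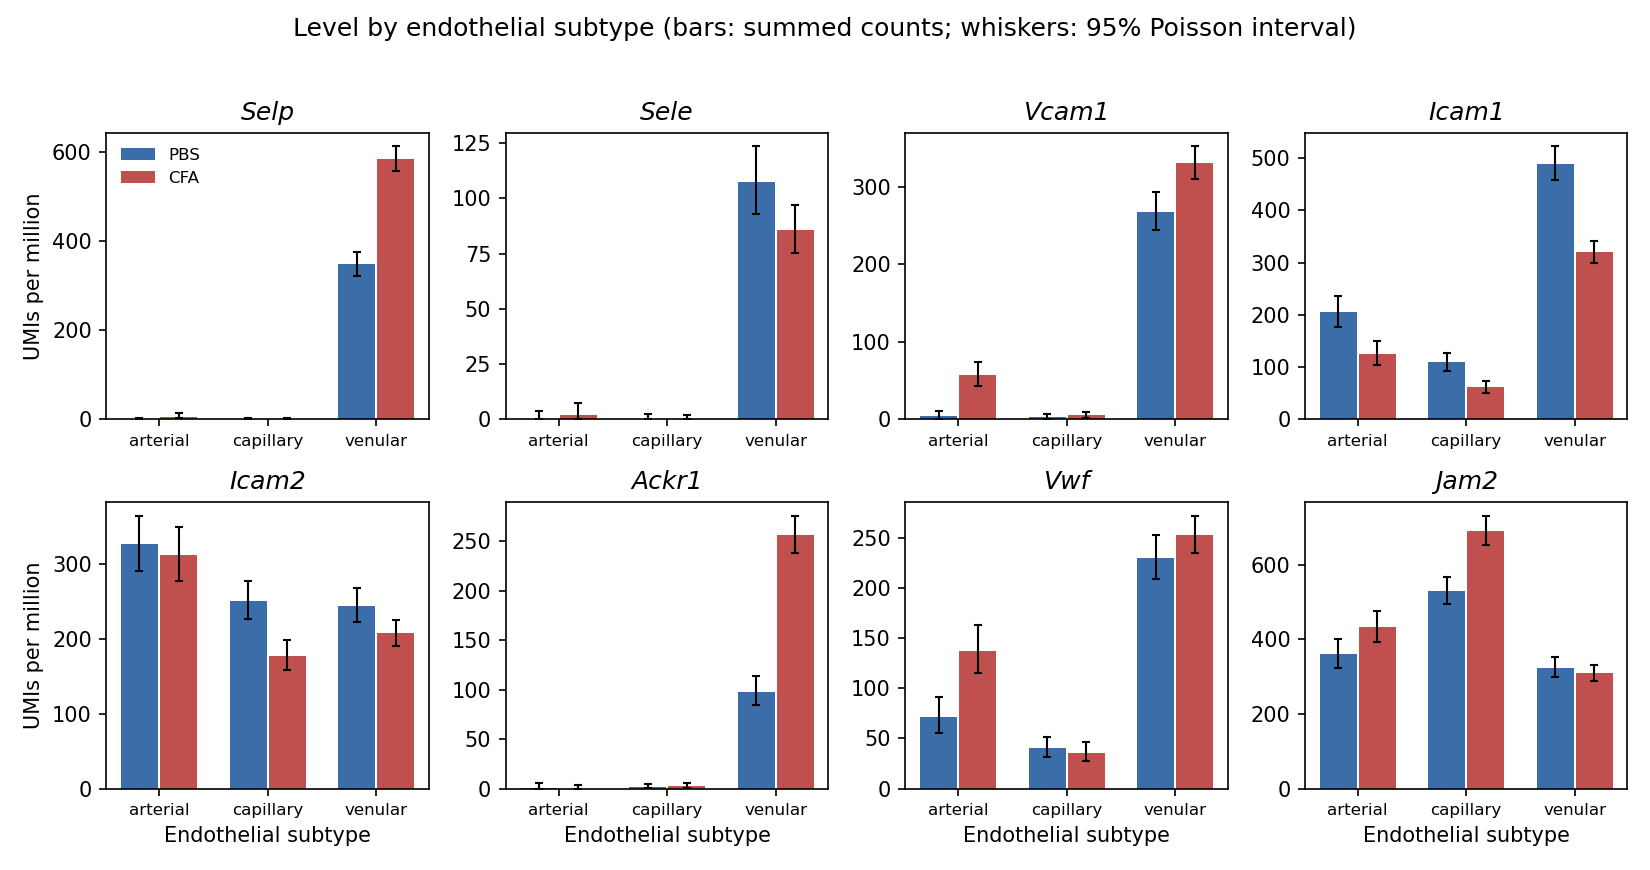
CPM of each gene in arterial-like, capillary-like and venular-like cells of the PBS and CFA libraries, with bars from summed counts and whiskers as 95% Poisson intervals. Selp, Sele and Ackr1 stand almost only in the venular-like bars (348 and 584 for Selp), whereas Jam2 is highest in capillary-like cells at 530 and 691.

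To compare the inflamed joint with its control, UMIs were summed over the endothelial-like cells of each library and divided by the library's total in those cells. Of the 8 genes, 3 were higher in CFA by at least 1.5-fold (Selp, Vcam1 and Ackr1), beside 8.03% of the 8630 genes that averaged 10 or more CPM. Only Icam1 was lower by that factor, beside 8.47% of all genes, and the median ratio over all these genes was 1.01. Since each condition is 1 library, a ratio compares these libraries and not the conditions in general, and no test across samples was possible.

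P-selectin and its storage partner were both above the control level, but by different amounts. Selp went from 118 CPM in PBS to 253 in CFA, from 672 and 1741 UMIs, a ratio of 2.14 with an exact 95% interval of 1.955 to 2.34. Vwf went from 120 to 149, a ratio of 1.25 (1.13 to 1.38), within the 1.5-fold limit. E-selectin, which unlike P-selectin is made on demand and not stored, was at a ratio of 1.045 (0.866 to 1.26), with Sele at 35.7 in PBS and 37.3 in CFA. That ratio turned on few cells: the 5 endothelial-like cells of most Sele UMIs held 60.6% of them in PBS, and without the 5 such cells of each library Sele was at 14.4 and 26.1, a ratio of 1.815. When cells were thinned to 1000 UMIs, with 10 PBS and 26 CFA endothelial-like cells too shallow to enter, 3.88% and 5.91% of endothelial-like cells held a Selp UMI, against 0.334% and 0.2755% of Schwann-like cells, whose median depth was 3827 and 3431.5 UMIs. Unthinned, these endothelial-like shares were 6.83% and 10.4%.

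Ackr1 had the largest CFA to PBS ratio of the 8 genes. It was at 33.8 CPM in PBS and 113 in CFA endothelial-like cells, a ratio of 3.34 (2.85 to 3.94) from 192 and 778 UMIs. By share of cells the gene was rare, with 1.25% and 2.76% of thinned endothelial-like cells holding a UMI against 3.01% and 1.93% of Schwann-like cells, so over all endothelial-like cells of PBS this share was no higher than in that class. The level in Schwann-like cells was lower than in endothelial-like cells in both libraries, at 14.4 and 12.6 CPM, with at most 2 UMIs in any cell against 22 and 75 in the endothelial-like cell of most UMIs.

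The integrin ligands went in different directions. Vcam1 was at 99.04 CPM in PBS and 159 in CFA, a ratio of 1.60 (1.44 to 1.775). Icam1 was lower in CFA, at 305 in PBS and 189 in CFA with a ratio of 0.6203 (0.577 to 0.667), and 18.6% of thinned PBS cells held a UMI of it against 11.2% of CFA cells. Icam2 was at 258 and 203, a ratio of 0.788 (0.732 to 0.8485), and Jam2 at 413 and 469, a ratio of 1.13 (1.075 to 1.20). For Icam1, the 2 libraries differed in the same direction in each of the 3 named vessel subtypes and in the unnamed cells led by Bmp6 and Slc10a6.

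**Figure D3:**
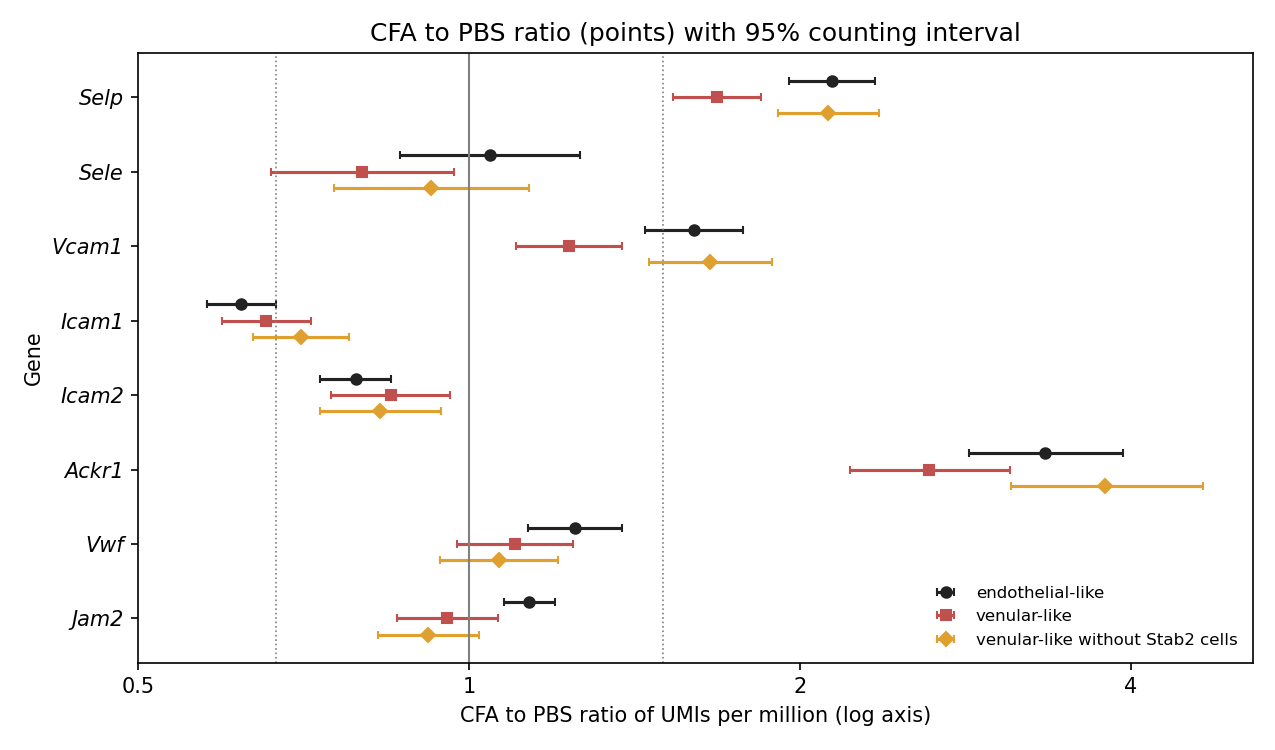
CFA to PBS ratio of CPM for each gene on a log axis, with whiskers as exact 95% intervals of counting error, in all endothelial-like cells, in venular-like cells and in venular-like cells without a Stab2 UMI. Ackr1 and Selp lie above 1 in all 3 settings and Icam1 below 1, whereas Sele lies near 1 in endothelial-like cells at 1.045.

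The size of these ratios depended on which cells were counted. When each endothelial-like cell was given the same weight in place of each UMI, Selp was at 1.34 and Ackr1 at 1.59, and Vcam1 turned to 0.925. Without the 5 cells of most UMIs of a gene in each library, 4 genes were past 1.5-fold, with Selp at 2.65, Sele at 1.815, Vcam1 at 2.19 and Ackr1 at 4.42. Giving each named subtype the same weight in both libraries gave 1.70 for Selp, 1.38 for Vcam1 and 2.58 for Ackr1. The ratio of Icam1 stayed below 1 under all 17 alternatives, between 0.472 and 0.654. Markers of other cells differed too: the summed level of 8 mural markers in endothelial-like cells was 282 CPM in PBS and 81.7 in CFA, that of 6 fibroblast markers 187 and 113, that of 6 erythroid markers 243 and 89.1 and that of 8 neutrophil markers 130.4 and 341, each with no marker at 0. The part of these other-cell RNAs in the ratios was not tested.

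Venular-like cells carried most of the signal, and in them 2 of the 8 genes, Selp and Ackr1, were higher in CFA by 1.5-fold, beside 10.0% of the 8767 genes compared. Only Icam1 was lower, beside 12.3%. Selp read 348 CPM in PBS and 584 in CFA (ratio 1.68, 1.53 to 1.84), from 632 and 1683 UMIs. Ackr1 read 97.95 and 257 (2.62, 2.22 to 3.10), and Icam1 489 and 319 (0.6535, 0.595 to 0.7175). The other 5 lay within 1.5-fold: Vcam1 at 268 and 330 (1.23, 1.10 to 1.38), Sele at 107 and 85.7 (0.799, 0.6595 to 0.969), Vwf at 230 and 253 (1.10, 0.974 to 1.24), Icam2 at 244 and 207 (0.848, 0.749 to 0.961) and Jam2 at 324 and 309 (0.954, 0.859 to 1.06). Mural markers summed to 602.5 CPM in PBS and 91.98 in CFA venular-like cells and fibroblast markers to 403 and 186, none of them at 0, whereas all 6 T and NK cell markers were at 0 in both.

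A few cells held much of each gene. The 5 PBS venular-like cells of most UMIs held 63.1% of Sele, 56.2% of Ackr1, 46.6% of Vcam1 and 40.8% of Selp, against 32.4%, 38.7%, 22.7% and 24.2% in CFA, where they are 5 of more cells. Icam1 and Jam2 were spread more widely, with 17.7% and 18.3% of Icam1 and 13.92% and 15.04% of Jam2 in such cells. For Selp, 29.4% of PBS and 42.1% of CFA venular-like cells held any UMI, 17.65% and 24.3% after thinning, and 13.2% and 23.8% held 10 or more, up to 72 and 91 in a cell. For Vcam1, 36.03% of PBS and 63.4% of CFA cells held a UMI, 16.2% and 17.8% after thinning to 1000 UMIs and 19.85% and 31.3% after thinning to 2000. These cells were deep, with medians of 11287.5 and 12063.5 UMIs. Without the 5 cells of most UMIs in each library, which removes a larger share of the PBS cells, the ratios were 2.11 for Selp, 3.63 for Ackr1, 1.84 for Vcam1, 1.42 for Sele and 0.6555 for Icam1.

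**Figure D4:**
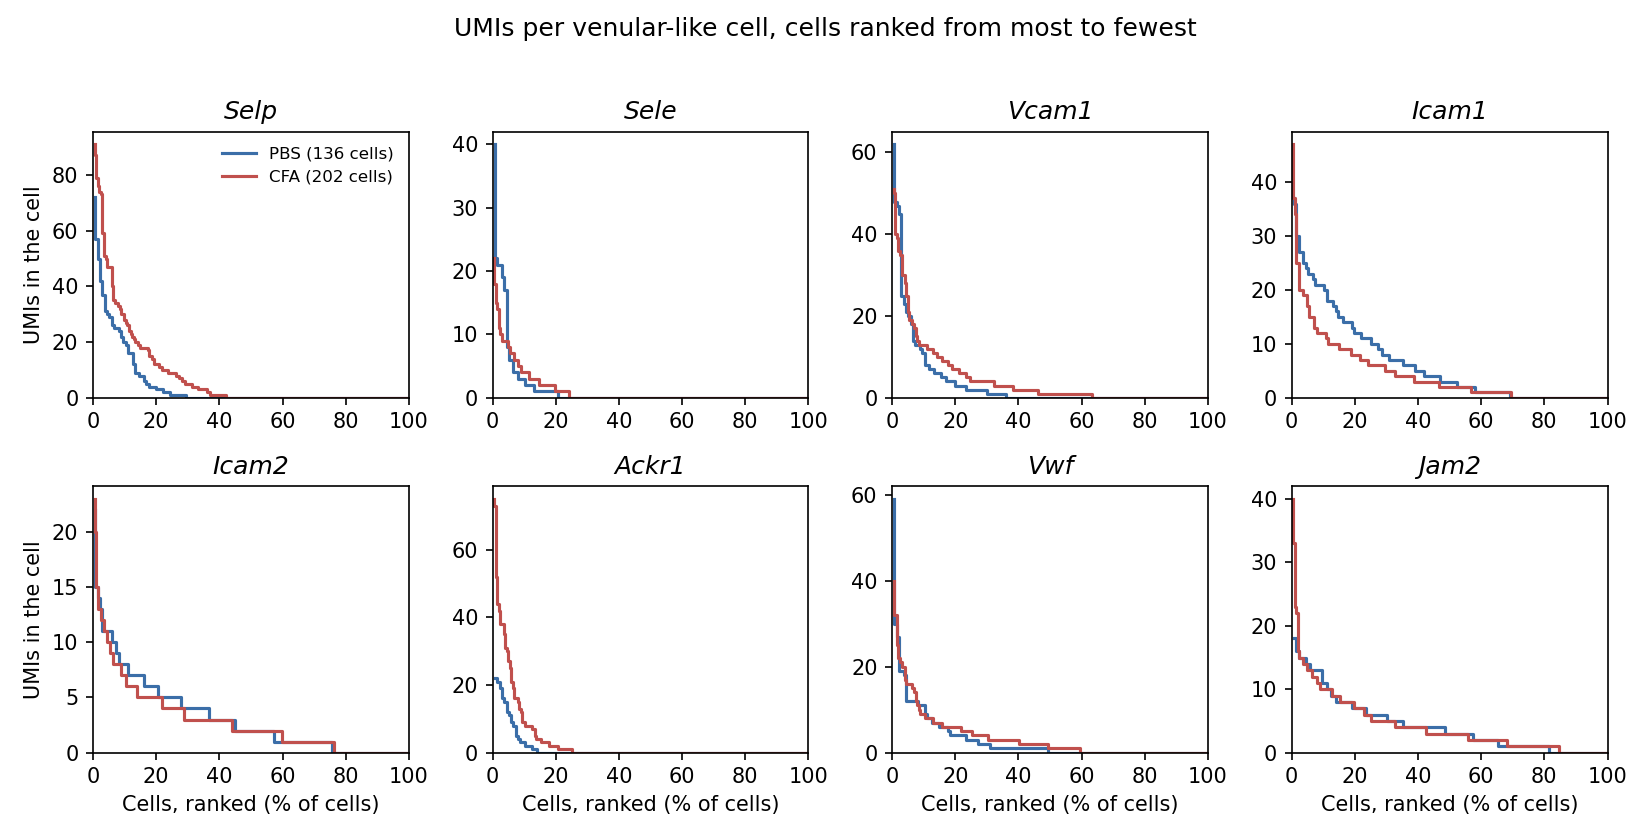
UMIs of each gene in single venular-like cells, ranked from most to fewest along the x axis (percent of cells), for 136 PBS and 202 CFA cells. Selp, Sele, Vcam1 and Ackr1 fall steeply from a few cells of many UMIs (72 and 91 for Selp), whereas Jam2 and Icam2 are held at low counts by most cells.

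Some of these cells may have been of a different kind, which was not established. In venular-like cells, 10 of PBS and 6 of CFA held UMIs of Stab2, a scavenger receptor known from the sinusoids of marrow, liver and spleen, and they also carried most UMIs of Maf, Gpm6a and Dnase1l3, other sinusoid genes of the marker list. The remaining genes of that list did not follow: these cells held 31.0% and 11.2% of the Stab1 UMIs, and Fabp5 was at 100.2 CPM in the 10 PBS cells against 887 in the other PBS venular-like cells. This split was made after the values were seen. The 10 PBS cells stood at 1444 CPM of Selp, 1327 of Vcam1, 1244 of Icam1 and 518 of Ackr1, against 270, 193, 435 and 68.3 in the other 126. They held 27.4% of the Selp, 32.65% of the Vcam1 and 34.8% of the Ackr1 UMIs of PBS venular-like cells, whereas the 6 CFA cells held 5.23%, 6.51% and 2.57%. Vwf and Jam2 were low in them, at 41.7 and 50.1 in PBS against 243 and 343 in the others. Without all cells that held Stab2, 3 genes were higher in CFA venular-like cells by 1.5-fold, with ratios of 2.12 for Selp (1.91 to 2.36), 1.66 for Vcam1 (1.46 to 1.885) and 3.79 for Ackr1 (3.11 to 4.65), and none was lower, Icam1 being at 0.703 (0.636 to 0.777). In all endothelial-like cells, the ratios without them were 2.69 for Selp, 2.065 for Vcam1, 4.74 for Ackr1 and 0.636 for Icam1.

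The venular result was the least firm of these. With cells assigned 1 by 1 from markers and no clusters, the ratios were 1.005 for Selp, 0.7055 for Vcam1, 1.31 for Ackr1 and 0.542 for Icam1, and with a finer reclustering 1.31, 0.973 and 2.03 for the first 3, so that Selp was not past 1.5-fold in either. As a mean over venular-like cells the ratios were 1.24 for Selp, 0.752 for Vcam1 and 1.89 for Ackr1. Over all alternatives in these cells, Icam1 kept between 0.520 and 0.703 and Ackr1 between 1.31 and 3.79.

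Outside the venular-like cells, fewer of the genes reached 10 CPM. In arterial-like cells 5 of the 8 did, of which Vcam1 and Vwf were higher in CFA, beside 15.1% of the 8517 genes compared, and Icam1 was lower, beside 16.4%. Vcam1 rested on 4 UMIs in PBS and 54 in CFA, at 4.22 and 57.1 CPM (ratio 13.5, 4.995 to 51.5), and 81.5% of the CFA UMIs were in 5 of the 134 cells. Vwf was at 71.7 and 138 (1.92, 1.42 to 2.61), with 6.957% and 20.15% of thinned cells holding a UMI, and at 1.80 without the 5 cells of most UMIs in each library. The level of Icam1 was 205 and 126 (0.615, 0.486 to 0.777).

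In capillary-like cells, 4 of the 8 genes could be compared and none was higher in CFA, beside 14.1% of the 8389 genes, while Icam1 was lower, beside 15.5%, at 109 in PBS and 61.4 in CFA (0.564, 0.4385 to 0.723). Jam2, the gene of this set that was highest in capillary-like cells, was at 530 and 691 (1.305, 1.19 to 1.43), Icam2 at 251 and 177 (0.707, 0.607 to 0.823) and Vwf at 40.5 and 35.9 (0.887, 0.615 to 1.28). In the unnamed cells led by Bmp6 and Slc10a6, 5 genes could be compared, of which none was higher, beside 16.4% of the 8064 genes. Vcam1, Icam1 and Icam2 were lower there, beside 21.8%, at 22.2 and 11.9, 370 and 134, and 210.5 and 132 CPM, and the interval of the Vcam1 ratio (0.535, 0.233 to 1.16) included 1.

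Sele and Ackr1 were each more often found in venular-like cells that held Selp. At 1000 UMIs per cell, 41.7% of the 24 PBS cells with a Selp UMI held Sele and 0% of the cells without one did, and in CFA it was 20.4% of 49 cells against 3.27%. Ackr1 was in 16.7% against 2.68% of these cells in PBS and 20.4% against 4.575% in CFA. At this depth, 10 of the 136 PBS cells held Sele and 7 held Ackr1, too few to tell whether the genes share cells. None of them held both, whereas 4 of the 202 CFA cells did. Unthinned, PBS cells with both were seen, such as the cell of 26812 UMIs, with 22 UMIs of each. Vwf, which shares its storage granule with P-selectin, was in 29.2% of PBS cells with Selp against 10.7% without, and in 42.9% against 9.15% in CFA. Vcam1 went with Selp in PBS (54.2% against 8.04%) but, at this depth, not in CFA (12.2% against 19.6%, with 6 cells holding both). Over all thinned CFA endothelial-like cells, Vcam1 was in 18.3% of cells with Selp against 4.61% of those without. Unthinned, where depth differs between cells, CFA venular-like cells with Selp held Vcam1 more often than those without. Icam2 and Jam2 were held less often by cells with Selp in both libraries, by 16.7% against 23.2% and 16.7% against 25.0% in PBS and 16.3% against 22.2% and 18.4% against 24.8% in CFA. The cells of a library are not replicates, so these shares are descriptions of the 2 libraries.

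Few cells held many of the genes at this depth. Of PBS venular-like cells, 27.9% held none of the 8, 34.6% held 1, 19.1% held 2 and 2.21% held 5, the highest number seen there. In CFA, 21.3% held none, 39.1% held 1, 21.8% held 2 and 1 cell held 6. In capillary-like cells no cell held more than 2 in PBS or 3 in CFA.

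Among the other classes with 50 or more cells in both libraries, Vcam1 was highest in satellite cell-like cells, the stem cells of muscle, which carry VCAM-1 at rest, with 584 CPM in PBS and 347 in CFA (ratio 0.5935, 0.489 to 0.720). Macrophage-like cells, a lineage in which VCAM-1 is known from marrow and spleen, were 19 in PBS and 312 in CFA, so no ratio is given. In fibroblast-like cells Vcam1 was at 61.7 and 93.6 (1.52, 1.32 to 1.75), and in tenocyte-like cells at 51.95 and 17.03 (0.328, 0.1995 to 0.518). The 35 PBS and 28 CFA cells named osteoblast-like or osteocyte-like held 331 and 85 Vcam1 UMIs, 19.2% of all Vcam1 UMIs of the PBS library. On these few cells, the Vcam1 level was above that of satellite cell-like cells in PBS and below it in CFA.

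Icam1 was widely spread. Fibroblast-like cells had 151 CPM in PBS and 109 in CFA (0.7225, 0.649 to 0.804), chondrocyte-like cells 101 and 22.6 (0.225, 0.1575 to 0.315), tenocyte-like cells 78.9 and 28.9 (0.366, 0.251 to 0.522) and mural-like cells, the smooth muscle cells and pericytes of vessels, 91.9 and 49.5 (0.539, 0.423 to 0.684). In neutrophil-like cells it went the other way, from 36.4 to 176.5 (4.85, 3.355 to 7.255), on 72 and 350 cells with median depths of 7971 and 4467 UMIs that passed the CD45+ reduction. It was likewise higher in CFA in B cell-like cells (16.3 and 35.2) and satellite cell-like cells (36.8 and 75.2). CFA macrophage-like cells were at 178, beside 189 in CFA endothelial-like cells. Lower Icam1 in CFA was thus seen in vessels and stroma and not in neutrophil-like, B cell-like or satellite cell-like cells, and whether these groups differ was not tested.

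The other genes were low outside endothelium, with exceptions. Jam2 was at 12.4 in PBS and 42.2 in CFA Schwann-like cells (3.40, 2.035 to 5.94), and at 12.3 and 36.3 in chondrocyte-like cells, while in fibroblast-like cells it was at 37.6 and 20.7. Icam2 was at 73.8 and 23.2 and Vwf at 30.0 and 12.05 in mural-like cells. Ackr1 was at 20.95 and 17.01 CPM in fibroblast-like cells, which gave 30.5% and 9.90% of all its UMIs. Cadm3, the gene whose span holds Ackr1, was high in these same classes, at 101.8 and 102.6 in fibroblast-like and 144 and 102.0 in Schwann-like cells, against 7.92 and 17.1 in endothelial-like cells and 20.4 and 39.9 in venular-like cells. The part of Cadm3 reads in the Ackr1 counts was not tested. P-selectin and von Willebrand factor are also stored in platelets and their precursors. An unnamed PBS cluster of 44 cells, led by Tbxas1, Stat4 and Med12l, in which 6 megakaryocyte and platelet markers summed to 1323 CPM, held 149 Selp UMIs in 12 cells and 147 Vwf UMIs in 3 cells, whereas the same cluster in CFA, at 40.35 for the markers, held 38 and 0. The 6 markers summed to 18.1 in PBS and 13.5 in CFA endothelial-like cells, and Gp9 and Gp1bb were at 0 in the latter.

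The counter-receptors on leukocytes were read from the same cells. Of the 13 listed, 3 reached 10 CPM in endothelial-like cells, and none of those was past 1.5-fold. Selplg, which encodes the selectin ligand PSGL-1, was highest in B cell-like cells at 169 CPM in PBS and 153 in CFA, with neutrophil-like cells at 76.5 and 121. Itgal and Itgam, the alpha chains of the ICAM-1 receptors LFA-1 and Mac-1, were highest in neutrophil-like cells, Itgal at 78.9 and 114 and Itgam at 342 and 574. Their shared beta chain Itgb2 was highest in neutrophil-like cells in PBS (174) and in osteoclast-like macrophages in CFA (621), as was Itgax in CFA (281). Itga4, the alpha chain of the VCAM-1 receptor VLA-4, was highest in B cell-like cells at 334 and 429, and its beta chain Itgb1 in mural-like cells at 902 and 942, with endothelial-like cells at 598 and 529.6. Cd44, a receptor for hyaluronan, was highest in neutrophil-like cells in PBS (427) and in macrophage-like cells in CFA (1572). Itga9 was highest in B cell-like cells in PBS (89.9) and in macrophage-like cells in CFA (119), Spn in neutrophil-like (33.99) and erythroid-like cells (57.4), and Itgb7 in granulocyte-monocyte progenitor-like cells in CFA (128), while Itgad was at no more than 2.87 CPM in every class of 50 or more cells. Only classes of 50 or more cells in that library entered these orders. Some highest classes had intervals that overlapped those of the next class. These were Selplg in CFA (granulocyte-monocyte progenitor-like cells at 152) and Itga9 in PBS (mural-like cells at 87.1). Spn was such a case in PBS (erythroid-like cells at 32.9) and in CFA (granulocyte-monocyte progenitor-like cells at 56.8).

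Other genes of the pathway were taken from lists and not for how they moved. As above, 8.03% of all genes compared in endothelial-like cells were higher in CFA by 1.5-fold and 8.47% lower. Among 15 compared genes of endothelial adhesion and junctions, Mcam (48.55 in PBS and 92.03 CPM in CFA, ratio 1.90) and Alcam (5.45 and 18.6, 3.41) were higher, and Jam3, a relative of Jam2 (69.3 and 36.6, 0.528), and Nectin2 (62.8 and 40.2, 0.640) were lower, with a median log2 ratio of -0.04 against 0.02 over all genes. The pan-endothelial junction genes Pecam1 and Cdh5, which were among the markers that named these cells, were at 1.06 and 0.917. Of 10 genes of Vwf partners and Weibel-Palade bodies, 4 were higher and none lower, with a median log2 ratio of 0.47: Itgb3, a subunit of the vitronectin receptor that also binds Vwf (3.87 and 18.0, 4.65), Rab27a, a GTPase of granule release (24.8 and 56.5, 2.28), Cd63, a granule tetraspanin (47.15 and 74.8, 1.59), and Plat, tissue plasminogen activator (34.8 and 54.15, 1.555). By subtype, 5 of 9 were higher in arterial-like cells (beside 15.1% of all genes) and 4 of 11 in venular-like cells (beside 10.0%). No gene of the list was lower in either. In capillary-like cells 2 of 9 were higher (beside 14.1%) and Angpt2 was lower (beside 15.5%). In the unnamed cells led by Bmp6 and Slc10a6, 2 of 9 were higher (beside 16.4%) and Angpt2, Edn1 and Plat were lower (beside 21.8%). The median log2 ratio in these unnamed cells was -0.36.

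Receptors for cytokines that act on endothelium gave 4 higher and none lower of 11 in all endothelial-like cells, beside the 8.03% and 8.47% of all genes, with a median log2 ratio of 0.34. These were the interleukin-1 receptor Il1r1 (45.4 and 147 CPM, 3.23), Csf2rb, the shared chain of the GM-CSF and IL-3 receptors (25.9 and 85.2, 3.295), Il13ra1 (21.5 and 43.1, 2.01) and the TNF receptor Tnfrsf1b (17.4 and 31.8, 1.825). Csf2rb was lower by 1.5-fold in capillary-like cells. None of 9 NF-kB feedback and subunit genes was past 1.5-fold in either direction in endothelial-like cells, with a median log2 ratio of 0.05. By subtype, 2 of the 9 were higher in venular-like cells (Tnip1 and Bcl3, beside 10.0% of all genes). Lower were 3 in arterial-like cells (Tnfaip3, Nfkb2 and Relb, beside 16.4%) and 2 in capillary-like cells (Nfkb2 and Relb, beside 15.5%). In the unnamed cells led by Bmp6 and Slc10a6, Tnfaip3 was higher (beside 16.4%) and Nfkb2 and Relb were lower (beside 21.8%). Of 6 compared genes of selectin ligands and their modification, St3gal4, a sialyltransferase, was higher (102.6 and 180.4, 1.76) and Tpst1, a tyrosine sulfotransferase, lower (51.2 and 22.8, 0.445). The median of these 6 was 0.10. Procr, the protein C receptor, was the only one of 6 flow-responsive and anti-adhesive genes past the limit (17.8 and 44.3, 2.49), and their median was 0.14.

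**Figure D5:**
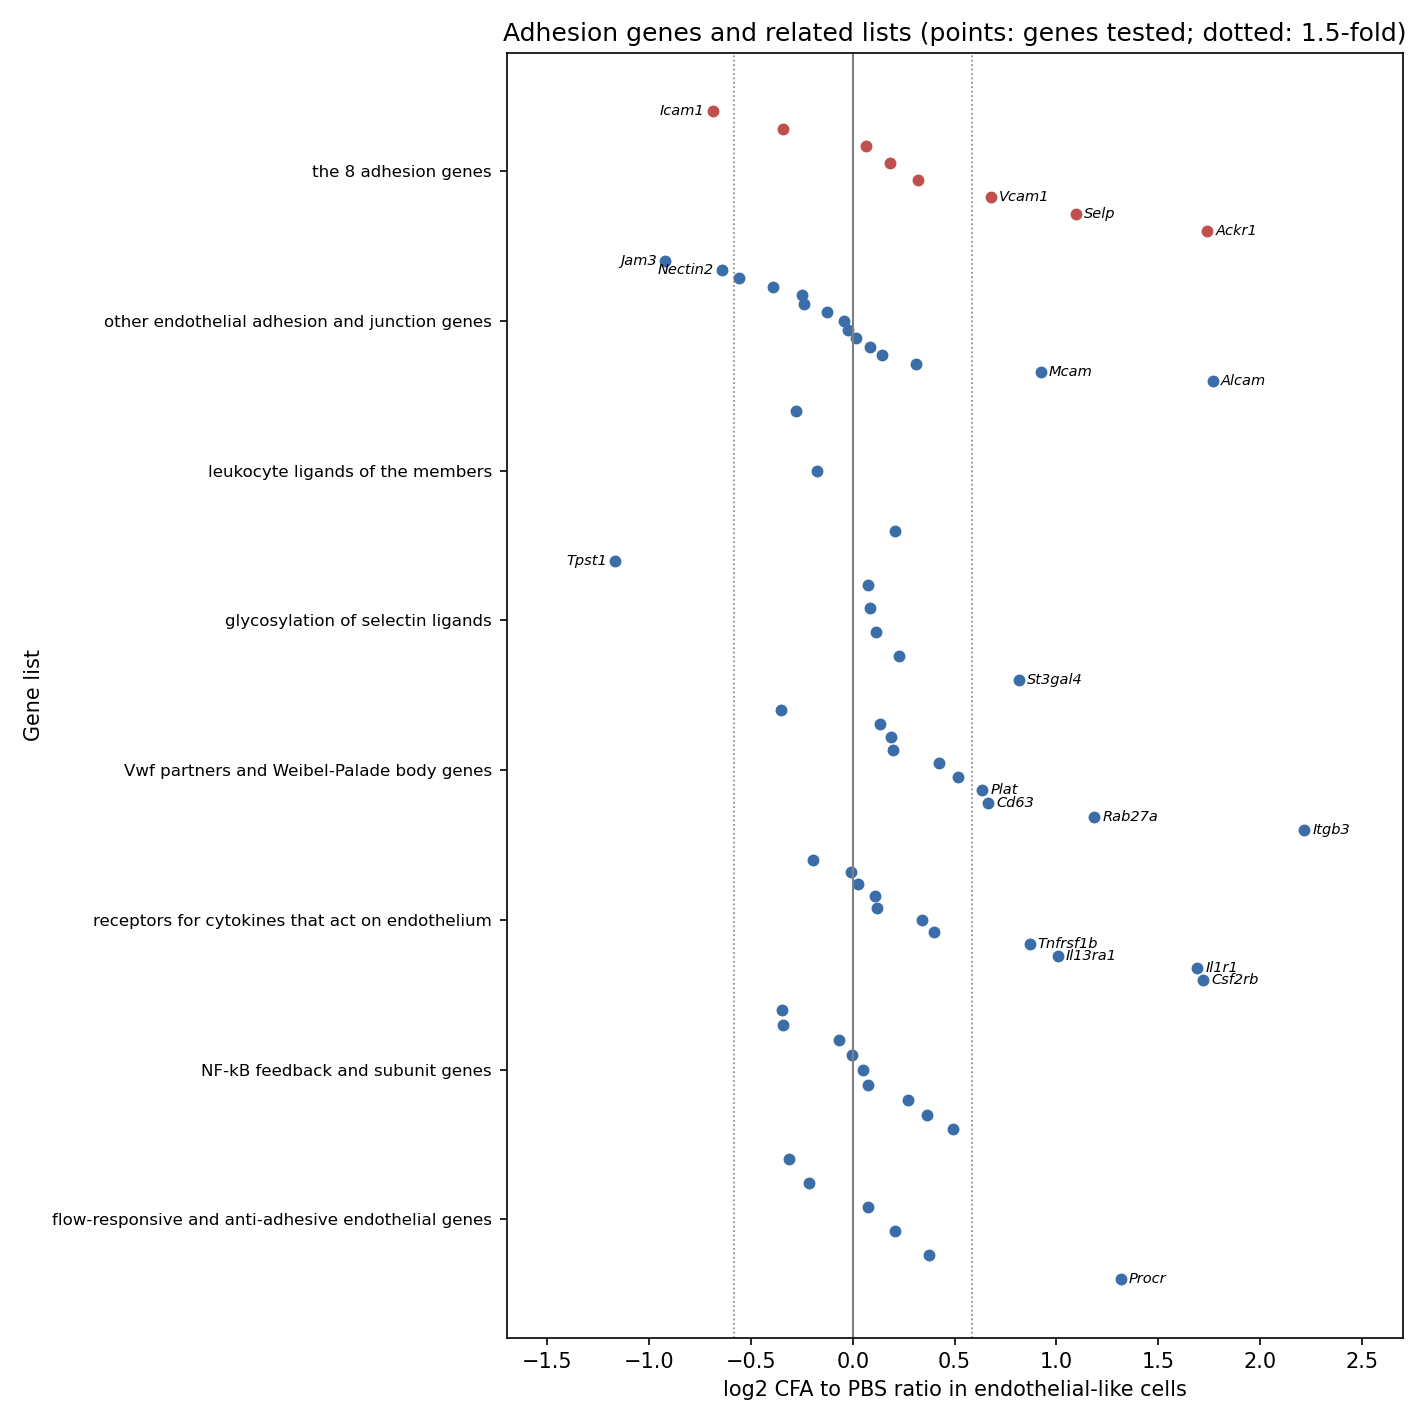
Log2 CFA to PBS ratio in endothelial-like cells for each gene of the fixed lists that averaged 10 or more CPM, with 1 row of points per list and 0 meaning equal levels. The lists of Weibel-Palade body genes and cytokine receptors hold 4 genes each above the 1.5-fold limit and none below the opposite limit, beside 8.03% and 8.47% of all genes, and the 9 NF-kB genes lie within the limits in these pooled endothelial-like cells.

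Over the 27 combinations of cell group and library with 50 or more cells, the levels of Selp and Sele followed each other most closely among the 8 genes, with a Pearson correlation of 0.973 on the log2(CPM + 10) scale. Both were high only in venular-like cells, with Selp at 348 in PBS and 584 in CFA and Sele at 107 and 85.7. The correlations of Selp and Sele, with each other and with other genes, therefore rest largely on the venular-like points. Ackr1 followed both (0.851 with Selp and 0.857 with Sele), and a separate set was formed by Icam2, Jam2 and Vwf (0.869, 0.81 and 0.822 for the pairs Icam2 and Jam2, Icam2 and Vwf, and Vwf and Jam2). Vcam1 had no correlation above 0.512 with any of them, and Icam1 none above 0.558. Among all genes that reached 50 CPM in some group, the closest to Selp after Sele were Fam167b (0.93) and Exoc3l2 (0.894), and the closest to Sele after Selp were Fam167b (0.943) and Stab2 (0.933). Nearest to Ackr1 were Tll1 (0.892), Tacr1 (0.871) and Fam167b (0.858), and nearest to Vwf were Clec14a (0.92), Kcnq1 (0.919) and C130074G19Rik (0.912). Icam2 was closest to Sigirr (0.98), Gimap5 (0.973) and Adgrl4 (0.969), and Jam2 to Arhgef15 (0.969), Fgd5 (0.968) and Nova2 (0.966). For Icam1 the closest were Tnfrsf1a (0.791), Itga5 (0.749) and Pgm2 (0.742), and for Vcam1 Sbno2 (0.785), Pde1c (0.774) and Ripk1 (0.771). These points share libraries and depth, the vessel subtypes are 6 of the 27, and the correlations are given as a description.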

How the data were processed

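UMI counts deposited by the authors, 1 filtered matrix per library, were used as raw counts. The submitters' processing notes name Cell Ranger 7.0.1 and mm10. The CFA matrix holds fewer barcodes than the study's stated cell count, and the labels and the methods differ in the digestion and in the version of the 10x Genomics 3' kit. Cells were clustered in Seurat 5.3.0 (R 4.3.3) with SCTransform, integration anchors, 200 principal components and a resolution of 1.5, leaving out 91 listed genes, which gave 37 clusters, 33 of them named from markers, and endothelial-like cells were reclustered on 30 components at 0.3. A name needed at least 3 markers detected. Vessel subtype markers were counted as endothelial after a first naming was seen, and the class markers alone were an alternative. The members, gene lists and markers were chosen with earlier results of these data known, and alternatives on Stab2, Ptprc, subtype weights, few-UMI clusters, means over venular cells and cells of most UMIs were added after the data were seen. Levels are summed UMI counts-per-million (CPM) with exact Poisson 95% intervals, shares of cells have Clopper-Pearson intervals, and ratios have exact conditional binomial intervals, computed in Python 3.11.15 with scipy 1.17.1. The ratio step was also run on simulated Poisson counts. Those counts follow the model that the intervals assume and leave out the uneven spread over cells, so the run cannot show the coverage in these data. All intervals cover counting error only. Genes named are the 8 members, listed genes past 1.5-fold in endothelial-like cells at a mean of 10 or more CPM, the leukocyte ligands with their highest class, and the 3 genes most like each member. Values of a few listed genes are not reported here. A limit at 0 is 3 UMIs over the group. Thinning to 1000 UMIs left out 55 PBS and 129 CFA cells. The hemoglobin limit removed 3178 PBS and 339 CFA barcodes. Doublets were not removed, because Scrublet (scanpy 1.11.5) called 21 PBS and 2 CFA cells. 147 PBS and 389 CFA cells stayed unnamed.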

Additional observations from a re-analysis of the deposited data

Results flagged for a closer look

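In several genes the CFA to PBS ratio passed 1.5-fold in opposite directions in different cell groups, and whether these groups differ was not tested, since each condition is 1 library. Among groups with at least 10 UMIs of the gene in each library, Vcam1 was higher in CFA in fibroblast-like cells (ratio 1.517) and lower in satellite cell-like (0.5935), tenocyte-like (0.3279) and the unnamed endothelial-like cells led by Bmp6 and Slc10a6 (0.5348, with an interval of 0.233 to 1.16 that includes 1). Vcam1 was also higher in arterial-like cells (13.5, 4.995 to 51.5), where PBS held 4 UMIs. Icam1 was higher in neutrophil-like (4.847), B cell-like (2.165) and satellite cell-like cells (2.042), and lower in the arterial-like (0.6154), capillary-like (0.564), venular-like (0.6535) and unnamed Bmp6 and Slc10a6 cells (0.3617) of the vessels and in chondrocyte-like (0.225), mural-like (0.539) and tenocyte-like cells (0.3662). The ratio of Vwf was 1.918 in arterial-like cells and 0.4017 in mural-like cells. Jam2 was higher in Schwann-like (3.396) and chondrocyte-like cells (2.955) and lower in fibroblast-like (0.5496), mural-like (0.5268) and tenocyte-like cells (0.437).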

How the results depend on the processing

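Of 136 alternative ratios in endothelial-like cells, 114 stayed within the counting interval of the value reported, 21 moved outside it and 1 turned, Vcam1 at 0.925 as a mean over cells. As a mean over cells, 1 gene in place of 3 was higher in CFA endothelial-like cells. At 2-fold in place of 1.5-fold, Vcam1 (ratio 1.60) was no longer among the higher genes, and 0 in place of 1 was lower. In venular-like cells 29 of 56 alternative ratios moved. The count of genes higher in CFA, 2 as reported, was 1 at the finer reclustering resolution of 0.6, 0 with each cell classed on its own and 1 as a mean over cells of the subtype, and the count of lower genes, 1 as reported, was 2, 3 and 2 under these settings and 0 without cells that held Stab2. With each cell classed on its own, 1 gene in place of 0 was higher in capillary-like cells, and without the 5 cells of most UMIs 1 in place of 2 was higher in arterial-like cells. Over these alternatives the endothelial-like ratios ran from 1.34 to 2.69 for Selp, 0.668 to 1.815 for Sele, 0.925 to 2.19 for Vcam1, 0.472 to 0.654 for Icam1, 0.777 to 0.836 for Icam2, 1.59 to 4.74 for Ackr1, 0.886 to 1.37 for Vwf and 1.11 to 1.27 for Jam2. The causes of these changes were not tested. No paired analysis was possible because each condition has 1 library. With 1 library per condition, no library could be left out.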
